A study of Rattus norvegicus with 325 samples.

Results

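Gene expression in the gastrocnemius, the large and mainly fast muscle of the calf, was compared between rats of 12 months and rats of 6 months, ages that span the passage from young to mature adulthood. Libraries were taken by their labels, so that all 11 libraries labeled gastrocnemius and 12 months were set against all 10 labeled gastrocnemius and 6 months. These are 21 of the 73 gastrocnemius libraries and of the 325 libraries of the series, which holds 4 muscles at 7 ages (9, 18, 21, 24 and 27 months besides the 2 compared). All animals in both groups were males of the outbred Sprague Dawley strain, raised by 1 supplier, with no treatment named in the labels. The labels do not tie libraries to animals. The muscles of 1 age group were taken on 1 day in the first part of the light phase, so age cannot be told apart from the collection day in any difference between 6 and 12 months. RNA was extracted from muscle tissue, and the sources do not say whether a whole muscle or a part of it was used. In such bulk RNA, fewer cells of a type, less RNA per cell and a different region sampled cannot be told apart.

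The libraries held 23.2 to 53.2 M counts (median 32.8) at 12 months and 26.1 to 85.3 M (median 35.5) at 6 months, with no difference past the threshold (two-sided permutation test, p = 0.618). The share of counts on ribosomal RNA genes (p = 0.769) and the number of genes detected (p = 0.760) also did not pass. The share taken by the 10 most abundant genes did, with 24.1 to 28.3% (median 26.2%) at 12 months against 26.5 to 32.6% (median 27.8%) at 6 months (p = 0.00142). Along the leading axis of the spread within ages, which held 43.4% of that spread, 6-month replicates 4 and 9 stood apart with scores of 38.3 and 24.0, and the next highest library of these ages, 12-month replicate 8, scored 17.7. The sample numbers of the 12-month gastrocnemius libraries ran on without a library of another age among them, whereas those of the 6-month libraries were spread over a range that held 52 libraries of other ages. In the other 3 muscles, no library of another age lay inside the number range of either age. At these ages every gastrocnemius number lay below every number of the other 3 muscles. Muscle and number series thus cannot be told apart in a difference between the gastrocnemius and another muscle.

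The labels of the muscle were checked against fiber genes. Muscle fibers are typed by their myosin heavy chain, with Myh4, Myh1 and Myh2 in fast fibers and Myh7 in slow ones. Levels are given as CPM, the counts of a gene for each 1 M counts of a library's scaled total, and are compared between ages and not between genes. Myh4 ranged from 40351 to 61794 CPM (median 47466) at 6 months and from 17554 to 65783 (median 36316) at 12 months, and Myh7 from 5498 to 10363 (median 6854) and from 6831 to 11853 (median 8940). All 27 fast and slow fiber genes of the lists were detected. Of the 14 fast fiber genes, 12 had a lower fitted level at 12 months, with a median log2 change of -0.22 and a summed level of 185194 to 218661 CPM at 6 months against 159390 to 199928 at 12 months. Of the 13 slow fiber genes, 12 had a higher one, with a median of 0.31 and sums of 9669 to 16760 against 11862 to 20223. No gene of either list was called. Lmod2 of the slow fiber list was higher at 12 months with an adjusted p below 0.05 by limma, but its change did not reach 1.5-fold. Myh4 had a log2 change of -0.49 (SE 0.18, adjusted p = 0.161 by limma), Myh1 of 0.04, Myh2 of 0.10 and Myh7 of 0.31 (adjusted p = 0.415).

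Muscle fibers are bound together by a collagenous matrix made mainly by fibroblasts and, toward the tendon, by tendon cells. Type I collagen, a triple helix of the products of Col1a1 and Col1a2, is its main tensile component, and its synthesis is high in growing animals. Fibers are driven by motor axons, and like most tissues they hold a circadian clock in which Arntl and Clock activate genes such as Dbp on a daily cycle.

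Of 11865 genes tested, 105 were called (0.885%), which required more than a 1.5-fold change and, by limma, an adjusted p (Benjamini-Hochberg) below 0.05, 58 of them higher at 12 months (0.489%) and 47 lower (0.396%). Among genes with a mean log2 CPM over 0, the falls were led by Col1a1 of type I collagen and the rises by Sln, which encodes sarcolipin, an inhibitor of the calcium pump of the sarcoplasmic reticulum. The median absolute log2 change of the called genes was 0.83. Over all genes the median of the signed changes was 0.01 and the median SE 0.10. A change past 2-fold was reached by 22 genes that rose and 9 that fell. Without a fold threshold 266 genes passed (2.24%), and 161 of these were lower at 12 months (1.36%). The count and its balance depended on the libraries and on the scaling. Without both 6-month libraries that stood apart, 67 genes were called, with 28 higher and 39 lower, and 59 of them were among the 105. Without 6-month replicate 7, 75 genes were called and 38 of them were higher. Scaling by total counts alone moved the share of higher calls from 55.2 to 72.5% of the called genes.

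**Figure D1:**
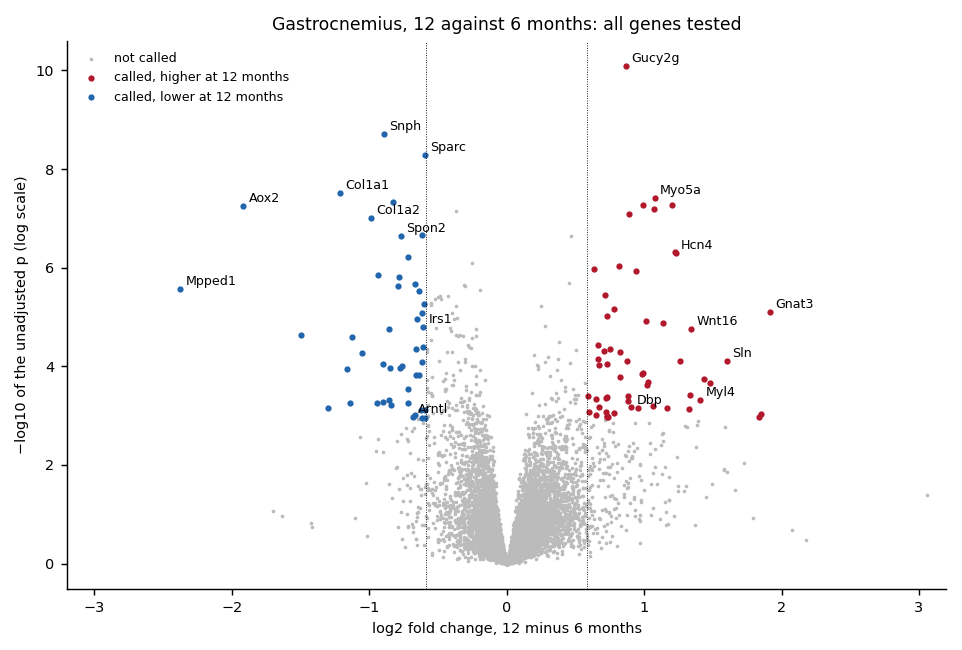
All 11865 genes tested, with the log2 fold change from 6 to 12 months on the x axis and the negative log10 of the unadjusted limma p on the y axis; dotted lines mark 1.5-fold. The 58 red genes rose and the 47 blue genes fell, with Gucy2g, Snph and Sparc among the highest points and Col1a1 the highest of the falls past 2-fold.

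Between the ages, 17 of all genes had groups of libraries that did not overlap (0.143%), 6 with every 12-month library above every 6-month library (0.0506%) and 11 below (0.0927%). Of the called genes, 6 that rose had this pattern, namely Rab27a, Fxyd6, Gucy2g, Slc16a7, Ppm1e and Hcn4, as did 5 that fell, namely Col1a1, Snph, Prodh, Sema7a and Hr. Some of these were named after their values were seen. Rab27a, a small GTPase of vesicle transport, was at 11.7 to 18.3 CPM (median 17.3) at 6 months and at 22.9 to 30.6 (median 25.2) at 12 months. Slc16a7, a carrier of lactate and pyruvate, was at 1.94 to 3.38 (median 2.48) and at 3.64 to 7.89 (median 4.75). Sema7a, a membrane-bound semaphorin, was at 187 to 296 (median 222) and fell to 122 to 177 (median 142), yet its log2 change of -0.62 (SE 0.18) had an adjusted p of 0.0494 by limma and was called in 5 of the 21 fits that each left out 1 library. Of the 105 genes, 54 were called in every one of those 21 fits.

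Both chains of type I collagen were among the 15 largest falls of genes with a mean log2 CPM over 0. Col1a1 was at 865 to 1792 CPM (median 1087) at 6 months and at 285 to 841 (median 487) at 12 months. Every 12-month library lay below every 6-month library, and the log2 change was -1.21 (SE 0.20, adjusted p = 7.24e-05). Its partner chain Col1a2 was at 701 to 1230 CPM (median 891) and then at 293 to 755 (median 481), with a log2 change of -0.99 (SE 0.17, adjusted p = 8.86e-05) and 10 of 11 libraries at 12 months below the lowest at 6 months. Col11a1, a chain of a minor collagen that is built into fibrils with type I or II, went from 11.6 to 23.6 CPM (median 17.3) at 6 months to 6.69 to 17.4 (median 11.2), a log2 change of -0.62 (SE 0.15, adjusted p = 0.00975). The groups overlapped for Col11a1, where 6 of the 11 older libraries lay below the lowest of the younger.

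These genes belong to a collagen list of 14 tested genes, of which they were the 3 that fell by the call rule (0.396% of all genes), none rose, and 12 had a negative change. Col16a1 passed the adjusted p alone (log2 change -0.58, adjusted p = 0.0171). Col3a1, the type III collagen that surrounds fibers and vessels, did not, with a log2 change of -0.39 (SE 0.13, adjusted p = 0.0821). The median log2 change over the list, these 3 included, was -0.23, beside 0.01 over all genes. Col11a2, which is not in the list and was named after its values were seen, was called as well, at 10.8 to 24.0 CPM (median 14.6) and then 5.42 to 16.3 (median 10.3), with a log2 change of -0.66 (adjusted p = 0.00669).

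Start regions of collagen genes that fell are shown with those of clock genes further on, as the regions where the rat genes begin. They are RefSeq windows on build GRCr8, from 250 bases before to 50 bases after the gene start, and the counts themselves rest on an older build. Of the 105 called genes, 72 had such a window. Capitals mark 3 motifs on either strand. One is CCAAT, which is bound by nuclear factor Y and reads ATTGG on the other strand. Another is AGGTCA, which is bound by ROR and REV-ERB receptors. The last is CACGTG, an E-box that reads the same on both strands and is bound by the clock activators. No marked motif overlapped another. CCAAT was found in 37.5% of the 33469 windows of the table, AGGTCA in 16.2% and CACGTG in 6.42%. The window of Col1a2 (chr4:33518307-33518606, plus strand) held 1 CCAAT and that of Col11a1 (chr2:204508886-204509185, plus strand) 2, and neither held the other motifs.
Col1a2: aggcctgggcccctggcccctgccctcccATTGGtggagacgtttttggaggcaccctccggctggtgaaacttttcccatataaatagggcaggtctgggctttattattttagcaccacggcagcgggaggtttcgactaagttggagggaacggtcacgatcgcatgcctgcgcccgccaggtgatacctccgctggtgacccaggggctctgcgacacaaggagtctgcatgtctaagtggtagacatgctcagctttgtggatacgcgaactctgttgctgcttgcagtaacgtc
Col11a1: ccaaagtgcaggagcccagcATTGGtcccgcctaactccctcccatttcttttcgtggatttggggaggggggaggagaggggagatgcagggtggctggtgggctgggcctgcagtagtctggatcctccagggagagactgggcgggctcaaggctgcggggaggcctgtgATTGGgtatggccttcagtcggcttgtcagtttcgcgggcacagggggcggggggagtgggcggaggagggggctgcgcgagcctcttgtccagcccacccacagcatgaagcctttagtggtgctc

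Of 27 tested genes that process collagen or belong to the rest of the matrix, 1 was called, beside 0.885% of all genes. Sparc, a collagen-binding secreted protein, was at 480 to 668 CPM (median 593) at 6 months and at 291 to 481 (median 408) at 12 months, and 10 of 11 older libraries lay below the lowest younger one. The log2 change was -0.60 (SE 0.09, adjusted p = 2.04e-05), close to the fold threshold, so that the call held in 16 of 21 fits without 1 library. Another 4 members passed the adjusted p but not the fold. These were P3h1, a collagen prolyl hydroxylase (-0.26), Pcolce, which enhances the cleavage of procollagen (-0.49), Fmod, a fibril-binding proteoglycan (-0.54), and Lox, which cross-links collagen (-0.55). In contrast, Bgn, Dcn and Lum, proteoglycans of the same matrix, had changes of -0.01, -0.11 and 0.05. The list had 21 negative changes and 6 positive ones with a median of -0.12.

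Several falls among the 15 largest, grouped after their values were seen, encode other secreted or matrix proteins. Cilp2, a matrix protein of cartilage and tendon-like tissue, went from 30.6 to 64.1 CPM (median 38.8) to 12.7 to 37.8 (median 22.2), a log2 change of -0.94 (SE 0.18, adjusted p = 0.000709). Fbn2, a fibrillin made in growing tissue, went from 1.81 to 2.94 CPM (median 2.12) to 0.823 to 1.97 (median 1.31), with a log2 change of -0.72 (adjusted p = 0.0235). Spon2, a secreted spondin, was at 11.6 to 17.3 CPM (median 13.4) and at 6.23 to 13.2 (median 8.05), with 10 of 11 older libraries below the lowest younger one (log2 change -0.77, adjusted p = 0.000172). The groups thus overlapped by 1 library for Spon2, as they did for C1qtnf6, a secreted protein related to complement C1q, which was at 3.31 to 6.50 CPM and at 1.65 to 3.43 (log2 change -0.72, adjusted p = 0.000388). Cpz, a carboxypeptidase bound to matrix, had a log2 change of -1.05 (SE 0.24, adjusted p = 0.00716).

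Marker genes of tendon are given beside these falls. Of 8 tendon genes tested none was called, 6 had a negative change and 2 a positive one, and the median was -0.35. Their summed level was 816 to 1094 CPM at 6 months and 472 to 880 at 12 months. Thbs4, a thrombospondin of tendon and muscle attachment, passed the adjusted p with a log2 change of -0.55 (adjusted p = 0.00493), as did Fmod, which is in both lists, beside 1.36% of all genes that passed it and were lower. The defining tendon markers Scx and Tnmd had changes of -0.23 and -0.34, and none of the list was at 0. The 11 fibroblast markers tested had a median of 0.04, with summed levels of 1275 to 1615 CPM and 1142 to 1562. The part of tendon tissue in the fall of the collagens was not tested.

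**Figure D2:**
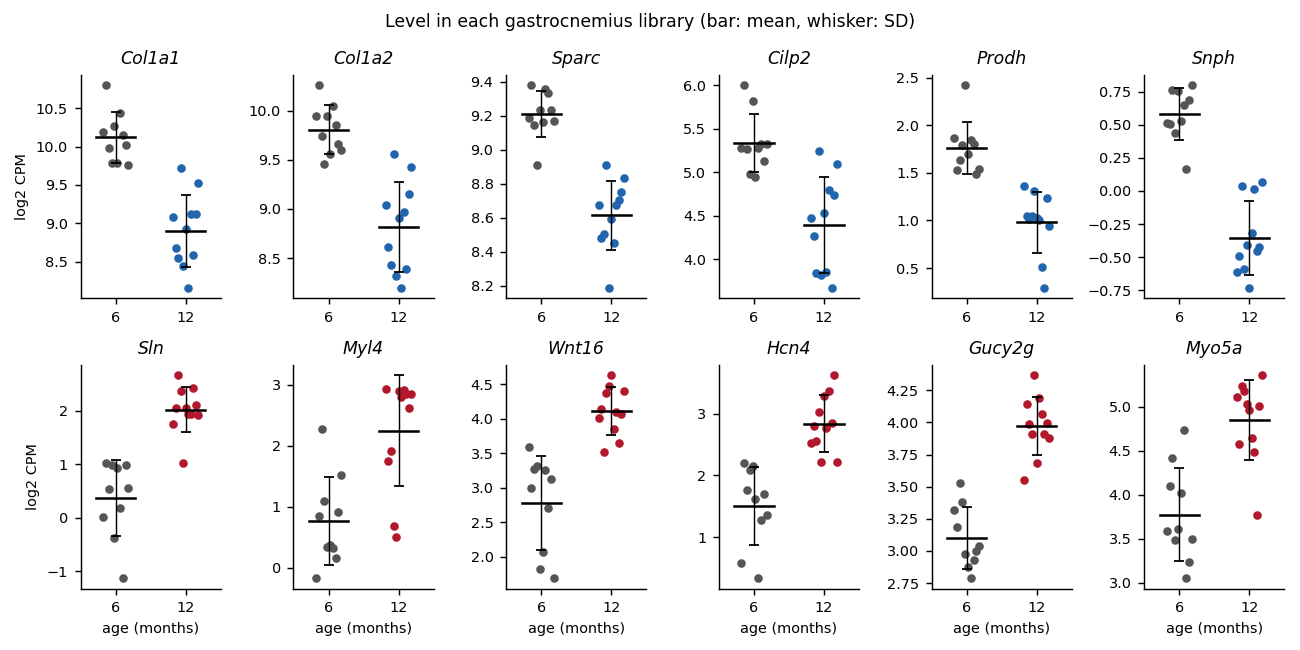
Level of 12 called genes in each gastrocnemius library, as log2 CPM on a separate y axis for each gene, against age in months, with 10 libraries at 6 months and 11 at 12 months (bar, mean; whisker, SD; sideways position within an age carries no meaning). For Col1a1, Prodh, Snph, Hcn4 and Gucy2g the ages do not overlap, and for Myl4 4 of the 11 older libraries lie among the younger ones.

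Enzymes and other intracellular proteins were also among the 15 largest falls. Prodh, the first enzyme of proline breakdown, was at 2.80 to 5.36 CPM (median 3.33) and at 1.21 to 2.56 (median 2.02) with no overlap (log2 change -0.79, adjusted p = 0.000944). Snph, syntaphilin, which anchors mitochondria in axons, was at 1.11 to 1.73 CPM (median 1.49) and at 0.588 to 1.03 (median 0.732), also with no overlap (log2 change -0.89, SE 0.13, adjusted p = 1.15e-05). Chac1, a glutathione-degrading enzyme induced by amino acid shortage, was at 24.2 to 104 CPM (median 55.1) and at 16 to 47.5 (median 26.6). Its groups overlapped and the call (log2 change -0.94, adjusted p = 0.0345) held in 12 of 21 fits without 1 library. Aldh3a1, an aldehyde dehydrogenase, and Ush1c, a scaffold protein, fell with log2 changes of -0.78 (adjusted p = 0.00073) and -0.86 (adjusted p = 0.00342). Ttc7a, which helps to hold a lipid kinase at the plasma membrane, was at 22.4 to 55.7 CPM (median 32.2) and at 14.7 to 29.7 (median 18.9), with a log2 change of -0.83 (SE 0.13, adjusted p = 7.24e-05).

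Of the growth hormone and Igf list, 1 of 23 tested genes was called, beside 0.885% of all genes. Irs1, the adaptor that carries the insulin and Igf1 signal from the receptor, was at 216 to 388 CPM (median 303) at 6 months and at 128 to 330 (median 184) at 12 months. Its log2 change was -0.61 (SE 0.13, adjusted p = 0.00338), near the fold threshold, and it fell short of 1.5-fold by edgeR and by DESeq2. Stat5b, a transcription factor below the growth hormone receptor, passed the adjusted p alone (-0.31, adjusted p = 0.000944). H19, a noncoding RNA next to Igf2, did so in the other direction (0.57, adjusted p = 0.0188), with 3179 to 6385 CPM (median 3917) at 6 months and 4213 to 10070 (median 6080) at 12 months. Igf1 and Ghr had log2 changes of -0.07 and 0.19, and Igf2 of 0.51 (adjusted p = 0.0659). The lowest change of the list was that of Igfals, a binding partner of circulating Igf1, at -0.75 (SE 0.31), which did not pass (adjusted p = 0.214).

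Of 22 genes of lipid synthesis and storage, Pnpla3, a lipase-like protein of lipid droplets, was the single gene called, beside 0.885% of all genes. It was at 1.61 to 4.49 CPM (median 2.97) at 6 months and at 0.697 to 3.3 (median 1.49) at 12 months, with overlap between the groups and a log2 change of -0.72 (SE 0.20, adjusted p = 0.035). The call held in 11 of 21 fits that left out 1 library, and neither edgeR (adjusted p = 0.080) nor DESeq2 (adjusted p = 0.064) made it. Fasn and Srebf1, the fatty acid synthase and a regulator of lipid synthesis, had changes of -0.13 and -0.08. Scd1, a fatty acid desaturase, had the largest change of the list in the other direction, 0.79 (SE 0.44, adjusted p = 0.384), at 1.92 to 11.1 CPM (median 3.09) and at 1.97 to 12.7 (median 6.89). In all 10 members had a positive change and 12 a negative one, with a median of -0.03.

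The core clock list held 1 rise and 1 fall among 16 genes, beside 0.489% and 0.396% of all genes. Arntl, the activator also named Bmal1, was at 17.7 to 51.3 CPM (median 34.6) at 6 months and at 11.2 to 38.4 (median 19) at 12 months, a log2 change of -0.69 (SE 0.20, adjusted p = 0.0484). Dbp, a transcription factor that the clock drives, was at 15.8 to 98.9 CPM (median 39.7) and at 34.3 to 155 (median 87.1), a log2 change of 0.91 (SE 0.26, adjusted p = 0.039). For both, the groups overlapped, and the calls held in 5 and 9 of the 21 fits without 1 library. With the sample number as a covariate Dbp had an adjusted p of 0.146. Ciart, a clock-driven repressor, had a larger log2 change of 1.38 (SE 0.42) that did not pass (adjusted p = 0.0596), and Per2, Nr1d2, Cry1 and Npas2 had changes of 0.48, 0.32, -0.26 and -0.43 that did not pass either. The clock has a daily cycle and each age came from 1 collection day, so age and day cannot be told apart here.

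The RefSeq windows of both called clock genes are shown because their levels moved in opposite directions. That of Arntl (chr1:176766078-176766377, plus strand, listed as Bmal1) held 5 CCAAT motifs and 1 AGGTCA, and that of Dbp (chr1:105312006-105312305, plus strand) 2 CCAAT and no AGGTCA. Neither held CACGTG, which says only that these letters are not in the window.
Arntl: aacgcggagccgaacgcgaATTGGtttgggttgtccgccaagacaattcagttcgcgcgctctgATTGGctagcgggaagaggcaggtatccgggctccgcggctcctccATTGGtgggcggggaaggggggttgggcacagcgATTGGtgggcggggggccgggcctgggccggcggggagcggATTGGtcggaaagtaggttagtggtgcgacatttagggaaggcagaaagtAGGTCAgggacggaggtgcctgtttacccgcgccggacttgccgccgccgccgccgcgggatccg
Dbp: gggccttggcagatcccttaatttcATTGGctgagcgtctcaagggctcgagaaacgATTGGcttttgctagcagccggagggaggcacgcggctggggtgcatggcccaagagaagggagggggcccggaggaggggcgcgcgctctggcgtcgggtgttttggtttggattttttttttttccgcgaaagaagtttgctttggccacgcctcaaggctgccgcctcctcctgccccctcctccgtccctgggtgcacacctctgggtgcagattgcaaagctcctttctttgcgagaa

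Among the genes that rose, Sln had the largest change of those with a mean log2 CPM over 0. It was at 0.443 to 2.02 CPM (median 1.45) at 6 months and at 2.01 to 6.35 (median 4.11) at 12 months. In 10 of 11 older libraries it lay above the highest younger one, and the log2 change was 1.60 (SE 0.38, adjusted p = 0.00974). Without 6-month replicates 4 and 9 the adjusted p was 0.0503. Myl4, a myosin light chain of atria and of fetal muscle, was at 0.874 to 4.81 CPM (median 1.53) and at 1.41 to 7.63 (median 7), a log2 change of 1.41 (SE 0.38, adjusted p = 0.0316). The 12-month libraries of Myl4 fell into a high and a low range, with 7 of 11 above the highest of the younger ones. Its call was lost without 6-month replicates 4 and 9 (adjusted p = 0.078) and with sample number as a covariate (adjusted p = 0.081). By limma it was also lost with sample quality weights (adjusted p = 0.061) and with the share of the 10 most abundant genes as a covariate (adjusted p = 0.091). With the slow fiber score as a covariate, the log2 changes were 1.54 for Sln (adjusted p = 0.0167) and 1.44 for Myl4 (adjusted p = 0.0357). Of the 105 called genes, 77 stayed called with this covariate and 28 did not, among them Arntl and Dbp (adjusted p = 0.066 for both by limma).

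Sln was the single called gene of 20 tested in the neuromuscular junction list, which had a median log2 change of 0.23, and 0.489% of all genes were called higher. It encodes a calcium pump inhibitor and not a protein of the junction, and no other member was called. The acetylcholine receptor subunit Chrnd, which rises when a fiber loses its nerve, was at 7.78 to 11.9 CPM (median 9.14) at 6 months and at 9.83 to 21.4 (median 13) at 12 months, a log2 change of 0.57 (SE 0.20) that did not pass (adjusted p = 0.105). Musk, the receptor kinase of the junction, Ncam1, an adhesion molecule of denervated fibers, and Hdac4, a repressor in the same response, had changes of 0.32, 0.25 and 0.04 (adjusted p = 0.572, 0.471 and 0.918). The ubiquitin ligases of atrophy, Trim63 and Fbxo32, had changes of -0.09 and -0.07. Cdkn1a, a cell cycle inhibitor in the atrophy list, had a log2 change of 0.75 with 23.4 to 49.7 CPM at 6 months and 22.6 to 128 at 12 months (adjusted p = 0.0678).

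Of the 15 largest rises, 3 encode ion channels, namely Hcn4, Kcnj3 and Cacna1e, which were grouped after their values were seen. Hcn4, a pacemaker channel opened by hyperpolarization and cyclic nucleotides, was at 1.25 to 4.56 CPM (median 3.15) at 6 months and at 4.64 to 12.4 (median 6.99) at 12 months, with no overlap. The log2 change was 1.22 (SE 0.22, adjusted p = 0.000339). Kcnj3, an inwardly rectifying potassium channel, was at 0.380 to 2.07 CPM (median 1.44) and at 1.72 to 3.61 (median 2.77), with 8 of 11 older libraries above all younger ones (log2 change 1.13, adjusted p = 0.00291). Cacna1e, a voltage-gated calcium channel subunit, was at 0.406 to 1.24 CPM (median 0.686) and at 0.446 to 2.75 (median 2). For Cacna1e 8 of 11 older libraries lay above all younger ones and the lowest lay among them, and its call (log2 change 1.16, adjusted p = 0.0397) held in 6 of 21 fits without 1 library.

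Gucy2g, Gucy2c and Nppc, which encode enzymes that make cyclic GMP and a peptide that acts through it, were also called and were likewise grouped after their values were seen. Gucy2g, a membrane guanylyl cyclase, had the smallest p of all genes and was at 6.89 to 11.5 CPM (median 8.09) at 6 months and at 11.7 to 20.7 (median 15.9) at 12 months. The groups did not overlap, and the log2 change was 0.87 (SE 0.11, adjusted p = 9.51e-07). Gucy2c, the guanylyl cyclase known from the gut, was at 0.506 to 0.902 CPM (median 0.698) and at 0.854 to 2.58 (median 1.39), and Nppc, the C-type natriuretic peptide, at 1.27 to 2.29 (median 1.65) and at 1.71 to 4.84 (median 3.50). Their log2 changes were 1.03 (adjusted p = 0.0183) and 1.02 (adjusted p = 0.0203), each with 9 of 11 older libraries above all younger ones. Gucy2g was among the 33 genes called under all 36 alternatives given further on, whereas Gucy2c and Nppc were not.

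Further genes of varied roles were among the 15 largest rises. Wnt16, a secreted Wnt ligand, was at 3.21 to 12.0 CPM (median 8.38) at 6 months and at 11.4 to 24.8 (median 17.0) at 12 months (log2 change 1.34, SE 0.29, adjusted p = 0.00342). Myo5a, an actin motor that carries vesicles, was at 8.26 to 26.6 CPM (median 12.1) and at 13.6 to 41.2 (median 32.3), with 7 of 11 older libraries above all younger ones (log2 change 1.08, SE 0.17, adjusted p = 7.24e-05). Ppm1e, a protein phosphatase, was at 3.05 to 6.27 CPM (median 4.29) and at 7.87 to 15.2 (median 8.79) with no overlap (log2 change 1.07, adjusted p = 7.62e-05). Pla2g7, the phospholipase that cleaves platelet-activating factor, rose by 1.23 (SE 0.22, adjusted p = 0.000339) on the log2 scale, and Tmem196, a transmembrane protein, by 1.20 (SE 0.20, adjusted p = 7.24e-05). Crb1, a cell polarity protein, rose by 1.01 (adjusted p = 0.00272) and Tdrkh, a Tudor-domain protein of the piRNA pathway, by 0.99 (adjusted p = 7.24e-05).

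Of 8 T cell markers tested, Ccl5 and Cd6 were called higher, beside 0.489% of all genes. Ccl5, a chemokine of T cells, rested on 73 counts at 6 months and 149 at 12 months over all libraries and had 0 counts in 1 younger library (log2 change 1.06, adjusted p = 0.037). Cd6, a T cell surface receptor, was at 2.96 to 5.68 CPM (median 4.13) and at 3.02 to 9.60 (median 6.03), a log2 change of 0.65 (adjusted p = 0.0463). Cd28, the costimulatory receptor of T cells, is not in the list but was among the 15 largest rises, at 0.315 to 1.27 CPM (median 0.884) and at 1.05 to 3.34 (median 2.01), a log2 change of 1.33 (SE 0.38, adjusted p = 0.0411). None of Ccl5, Cd6 and Cd28 was called under all the alternatives given further on. Cd4 and Cd8a of the list had changes of 0.16 and -0.27 (adjusted p = 0.590 and 0.727). Cd2 and Cd5 had changes of 0.36 and 0.37 (adjusted p = 0.603 and 0.668 by limma), and Cd3d, Cd3e and Cd3g were not among the genes tested. Of the 8 tested markers, 7 had a positive change and 1 a negative one. The list summed to 11.5 to 17.5 CPM at 6 months and 12.8 to 24.2 at 12 months. In that sum Cd4, at a mean log2 CPM of 3.06, weighs far more than Cd8a, at -1.96. Macrophage markers, 13 tested, had 12 positive changes with a median of 0.22 and none called. No B cell marker passed the filter on low counts.

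No gene was called in the lists of oxidative phosphorylation, of glycolysis and glycogen, or of fatty acid use. The 45 tested genes of oxidative phosphorylation had a median log2 change of 0.00, with 23 positive and 22 negative. Among them Cox6c had the largest change of 0.21 (adjusted p = 0.333). The 26 genes of glycolysis and glycogen had a median of -0.10, with 22 negative, and the 28 of fatty acid use 0.12, with 23 positive, in which Ucp3, the mitochondrial uncoupling protein, stood at -0.70 (SE 0.25, adjusted p = 0.119). The 23 cell cycle genes had a median of 0.15.

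The 25 tested genes of the stress and immediate early list all had a positive change, and none was called. Their median was 0.31, beside 0.01 over all genes. Each age came from 1 collection day, so age and day cannot be told apart here either. Atf3, a transcription factor of the stress response, was at 6.16 to 57.5 CPM (median 9.11) at 6 months and at 10.4 to 75.5 (median 33.9) at 12 months, a log2 change of 1.38 (SE 0.47, adjusted p = 0.104), and Fos had 0.89 (adjusted p = 0.148). Of 29 interferon response genes 25 were positive with a median of 0.23 and none called, Oas2 and Mx1 having the largest changes of 0.80 and 0.67 (adjusted p = 0.322 and 0.122). The 22 genes of antigen presentation had a median of 0.14, and in them B2m, the light chain of class I molecules, passed the adjusted p alone (0.38, adjusted p = 0.0435). Of 12 endothelial markers none was called and the median was 0.01.

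**Figure D3:**
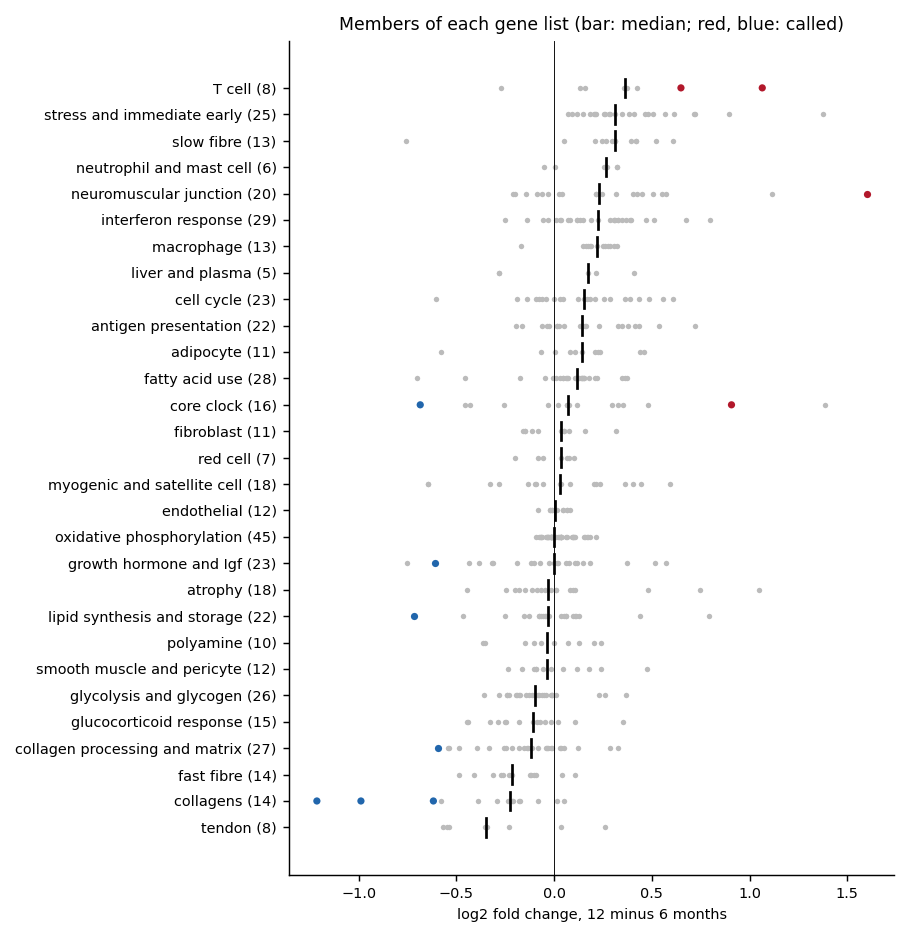
Log2 fold change from 6 to 12 months (x axis) of each tested gene in the 29 lists shown, each with 5 or more tested genes (y axis, number tested in brackets), ordered by median. Black bars are medians, which run from -0.35 in tendon to 0.36 in T cell, and colored points are the called genes, blue lower and red higher at 12 months.

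The ages around this step were fitted together, and the comparisons share libraries with each other. At 9 against 6 months 17 genes were called (0.143%), at 12 against 9 months 0 (0.0%) by limma and 2 by edgeR, with 548 genes at an unadjusted p under 0.05 (4.62%), and at 18 against 12 months 88 (0.742%), of which 78 were higher (0.657%). For Col1a1 the log2 change was -0.37 (SE 0.20, adjusted p = 0.583) from 6 to 9 months, -0.84 (SE 0.18, adjusted p = 0.0587) from 9 to 12 months and -0.43 (SE 0.18, adjusted p = 0.201) from 12 to 18 months, so that no single step passed. The steps of Col1a2 were -0.24, -0.74 and -0.30, and none passed either (adjusted p = 0.719, 0.0548 and 0.312). The median level of Col1a1 was 1087, 920, 487, 345, 274, 211 and 299 CPM in order of age. For Sparc the same steps were -0.20, -0.40 and -0.29, the last with an adjusted p of 0.0465.

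Myo5a, Prodh and Gucy2g were called at 9 against 6 months. Myo5a changed by 0.94 (SE 0.17, adjusted p = 0.00182) from 6 to 9 months, and by 0.14 and 0.09 over the following steps, with median levels of 12.1 CPM at 6 months and 29.6 to 35.1 at the later ages. Prodh changed by -0.80 (adjusted p = 0.00182) from 6 to 9 months and by 0.01 from 9 to 12 months, and Gucy2g by 0.68 (adjusted p = 0.000639) and 0.19. Arntl and Dbp had changes of -0.71 and 0.90 at 9 against 6 months, neither passing (adjusted p = 0.0735 for both), and of 0.02 and 0.00 from 9 to 12 months. Differences between steps were not tested.

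Levels after 12 months took several courses. Sln changed further by 1.30 (SE 0.26, adjusted p = 0.0022) from 12 to 18 months, and its median was 1.45, 2.51, 4.11, 9.29, 16.2, 56.9 and 70.8 CPM in order of age. Hcn4 and Wnt16, by contrast, had their highest median at 12 months. That of Hcn4 was 6.99 CPM at 12 months and 1.79 and 1.70 at 24 and 27 months, below the 3.15 of 6 months, and that of Wnt16 was 17.0, then 6.92 and 3.19. The later medians of both are given as a description.

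**Figure D4:**
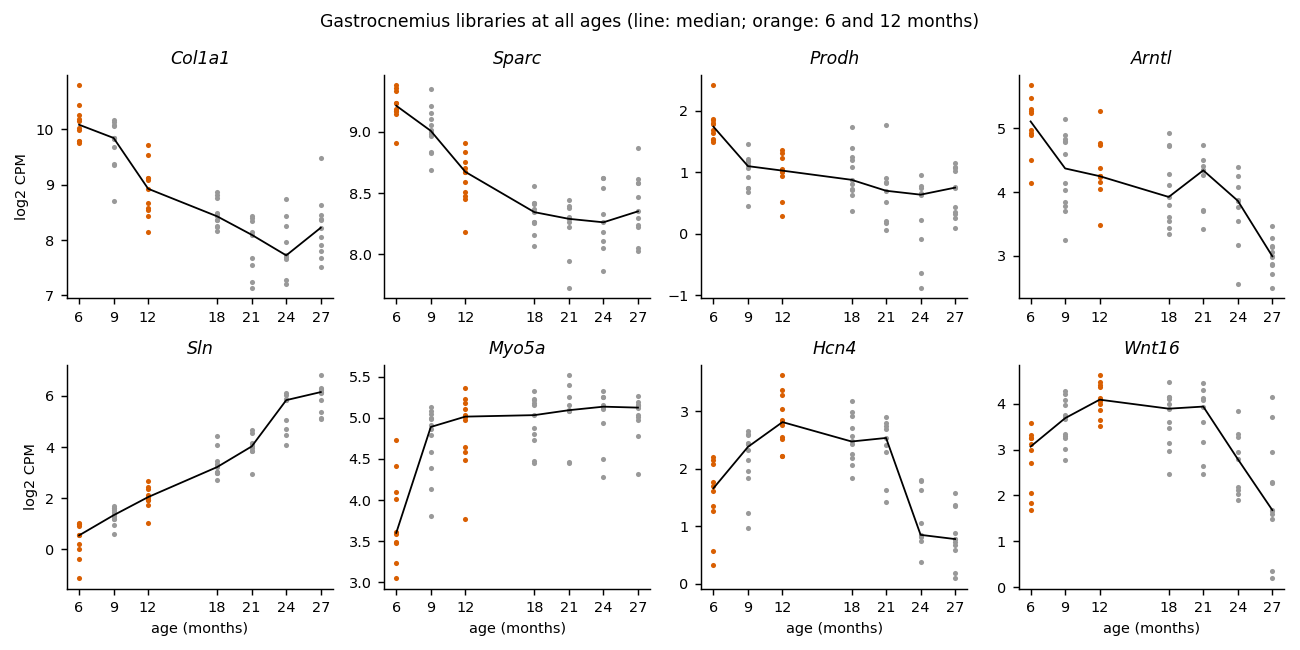
Level of 8 genes in all 73 gastrocnemius libraries, as log2 CPM (y axis, separate for each gene) against age in months, with orange points for the 6- and 12-month libraries and a line through the medians. The medians of Col1a1 and Sparc are lower past 12 months, those of Myo5a stay near the 9-month level, those of Sln run from 1.45 to 70.8 CPM, and those of Hcn4 and Wnt16 are highest at 12 months.

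The same ages were compared in the 3 other muscles, whose libraries are separate although the animals may be the same and the collection days were. At 12 against 6 months 23 genes were called in the tibialis anterior (0.196%), 43 in the soleus (0.353%) and 64 in the diaphragm (0.532%). Of the 105 gastrocnemius genes, 97 of the 101 tested in the tibialis anterior had a change of the same sign (96.0%, against 64.8% of all genes tested in both muscles), 88 of 100 in the soleus (88.0% against 59.6%) and 84 of 99 in the diaphragm (84.8% against 58.1%). Genes called in the same direction numbered 11 in the tibialis anterior, which is 10.9% of the gastrocnemius genes tested there and 47.8% of its own calls. They numbered 13 in the soleus (13% and 30.2%) and 13 in the diaphragm (13.1% and 20.3%), and none was called in the opposite direction in these muscles. Dbp was among them in all 3, with log2 changes of 1.07, 0.94 and 1.21.

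Col1a1 had a negative change in each muscle and was called in the diaphragm as well as the gastrocnemius. Its log2 change was -0.93 (SE 0.17, adjusted p = 0.000812) in the diaphragm, -0.64 (SE 0.21, adjusted p = 0.162) in the tibialis anterior and -0.58 (SE 0.18, adjusted p = 0.0512) in the soleus. Sparc had changes of -0.38, -0.30 and -0.42, with adjusted p-values of 0.000685, 0.0886 and 0.0108. None of the differences from the gastrocnemius passed for Col1a1, the largest being -0.64 (SE 0.29, adjusted p = 0.351) against the soleus. Myo5a rose in the tibialis anterior by 1.12 (SE 0.18, adjusted p = 8.12e-05), and Hcn4 and Wnt16 rose in the soleus by 1.12 and 1.08 (adjusted p = 0.00299 and 0.0308). Gucy2g rose in the tibialis anterior by 0.84 (adjusted p = 0.000293), and also in the diaphragm, by 1.11 (adjusted p = 7.4e-05).

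Tests of the difference itself called 1 gene against the tibialis anterior (0.00782%), 10 against the soleus (0.0782%) and 8 against the diaphragm (0.0626%), with 0, 1 and 4 of the 105 genes among them. The call against the tibialis anterior, Tpx2, was not made by edgeR. Against the soleus this was Ttc7a, with a difference in log2 change of -0.75 (SE 0.18, adjusted p = 0.0294). Against the diaphragm these were Atp1b2, Mpped1, Pla2g7 and Tmem196. The 105 genes had been chosen for their change in the same gastrocnemius libraries, which favors such calls among them. Atp1b2, a subunit of the sodium pump named here for this count, was at 518 to 934 CPM (median 760) at 6 months and at 360 to 706 (median 424) at 12 months in the gastrocnemius. Its log2 change there was -0.66 (SE 0.13, adjusted p = 0.000932), against 0.22 in the diaphragm, a difference of -0.90 (SE 0.18, adjusted p = 0.00995). For Sln, with changes of 0.68 (SE 0.21, adjusted p = 0.0534) in the soleus and 0.28 in the diaphragm, neither difference passed (adjusted p = 0.465 and 0.281).

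**Figure D5:**
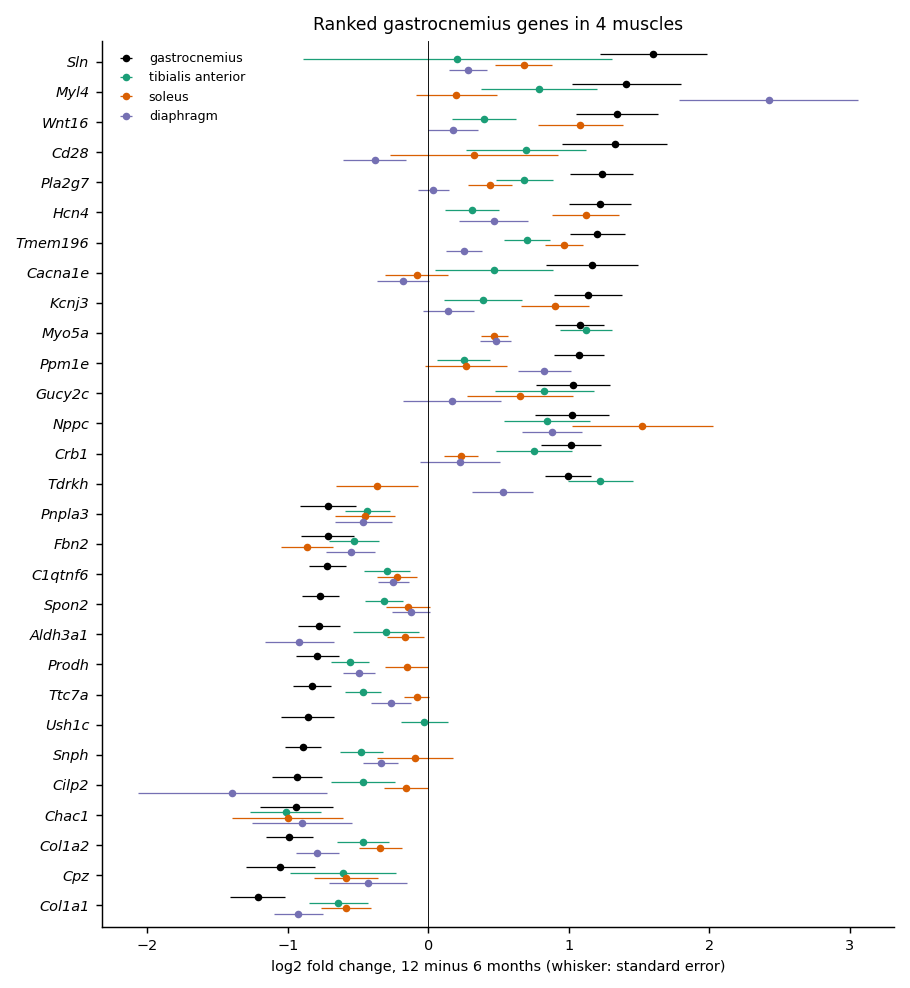
Log2 fold change from 6 to 12 months (x axis; whisker, standard error) of the 15 largest rises and 14 of the 15 largest falls of the gastrocnemius (y axis) in each of the 4 muscles; Ush1c has no soleus or diaphragm value. The gastrocnemius points were chosen for their size and the others were not; Col1a1 lies below 0 in all 4 muscles, and Myl4 reaches 2.42 in the diaphragm.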

How the data were processed

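Muscles were kept in RNAlater, and strand-specific libraries depleted of ribosomal RNA were sequenced as read pairs. The authors deposited raw counts per gene, 1 file for each of the 325 libraries, made with the ArrayStudio pipeline (its version is not given in the sources used here), an older rat build and an in-house gene model. Each file held 17870 gene lines and 17315 distinct symbols, and lines of 1 symbol were summed. Because 494 symbols stood on more than 1 line, 218 with identical counts in every library, counts of near-identical copies are uncertain.

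All 73 gastrocnemius libraries entered 1 fit. Genes were kept by filterByExpr (minimum count 10, minimum total count 15), scaled by TMM (edgeR 4.0.16), and tested two-sided with limma-voom (limma 3.58.1, R 4.3.3). Calls required more than a 1.5-fold change and an adjusted p (Benjamini-Hochberg) below 0.05. Bonferroni, which the study's methods name, was run as an alternative. Levels are CPM on the TMM scale, with a prior count of 0.5 for log2 values. For single library measures 100000 resamples were drawn. Differences between muscles were interaction contrasts in 1 fit of all libraries. The libraries of an age are separate samples; p-values measure the spread between them. The tests were also run on simulated counts with planted changes of 2-fold or more in well-counted genes and independent noise between libraries. Smaller changes and genes of low counts were not covered, and the outcome is not given here.

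Members and the 31 gene lists were chosen with earlier results of these data known. Named genes were the 15 largest rises and falls among called genes with a mean log2 CPM over 0, called list members or the 2 members with the largest changes, and 10 genes that check the muscle or that the study follows; a few are not reported here. DESeq2 1.42.0, edgeR's quasi-likelihood test, other scalings, filters, covariates and left-out libraries were alternatives. RefSeq names and start regions came from build GRCr8.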

Additional observations from a re-analysis of the deposited data

Results flagged for a closer look

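Among 89 named genes, 4 had a 6-month library beyond Dixon's limit on the log2 CPM scale, where chance gives about 1 in 20. For Ccl5 this was replicate 6 at -6.237, next to -3.215 in the nearest library, and it held 0 counts. Replicate 4 was the highest for Prodh at 2.426 (next 1.871) and the lowest for Emcn, an endothelial sialomucin, at 3.692 (next 4.050). Replicate 3 was the lowest for Sparc at 8.908 (next 9.145). The log2 changes of Prodh and Sparc from 6 to 12 months kept their direction in all 21 fits that left out 1 library.

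For 4 named genes the change from 6 to 12 months differed between muscles by an interaction contrast in limma, in units of log2 change. All 4 had been named for a large change in the gastrocnemius, which favors such differences. Tpx2, a spindle protein of dividing cells, differed by -1.153 (adjusted p = 0.0139) between the gastrocnemius (-0.61, adjusted p = 0.0568) and the tibialis anterior (0.53, adjusted p = 0.298), and it was not called in either muscle on its own. edgeR did not make this call. Ttc7a differed by -0.754 (adjusted p = 0.0294) from the soleus, where its change was -0.08. Against the diaphragm, Pla2g7 differed by 1.189 (adjusted p = 0.0387), its change there being 0.04 at a level of 19.7 CPM at 6 months and 20.8 at 12 months. Tmem196 differed by 0.9342 (adjusted p = 0.0473), with a change of 0.25 in the diaphragm and of 0.97 in the soleus (adjusted p = 1.17e-06).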

How the results depend on the processing

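The 105 calls at 12 against 6 months became 67 without both 6-month libraries that stood apart (chosen after seeing the data), 27 by Bonferroni, 31 at 2-fold and 266 with no fold threshold, and 75 to 115 when each library was left out in turn. With the replicate block 107 genes were called, 91 of them among the 105. The numbers cannot pair animals, because the rats were killed at collection and none was sampled at both ages. As a description, same-numbered libraries had a mean correlation of -0.049 and 1 of 10 pairs exceeded 0.1. Other alternatives gave 70 calls (share of the 10 most abundant genes as covariate, added later) to 139 (sample quality weights); sample number as covariate gave 106, of which 70 were among the 105. In all, 33 of the 105 genes were called under all 36 alternative tests, scalings, filters, covariates and left-out libraries, and none of the 105 reversed. Sample quality weights and DESeq2 called 65.5 and 66.1% higher, against 55.2%. Counts by Bonferroni were 5 at 9 against 6 months, 14 at 18 against 12, 6 in the tibialis anterior, 5 in the soleus, 6 in the diaphragm, and 0 and 1 for the differences from the soleus and diaphragm. At 12 against 9 months 3 genes were called with RLE size factors, 3 without the filter, 2 by edgeR and 5 with the replicate block. By edgeR the diaphragm had 97 calls, and the differences from the tibialis anterior and diaphragm 0 and 15. Of uncalled genes, the log2 change reversed for Alb (0.24 by edgeR, 0.46 by DESeq2, 0.048 without 12-month replicate 7 in a left-out range of -0.609 to 0.048, 0.026 with the library axis of the tibialis anterior as covariate), Hdac4 (-0.0015 without 6-month replicate 3 in a range to 0.0903, -0.057 with that axis), Myh1 (-0.016 with sample number), Myh2 (-0.055 with the slow fiber score), Cox7b and Emcn (-0.020 and -0.00426 without 6-month replicates 4 and 9), and, with the share of the 10 most abundant genes, Cldn5 (0.023), Emcn (-0.031) and Hdac4 (-0.034). The causes were not tested. Genes under about 1 CPM rest on few counts, which limits them.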

Other observations

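Of the 105 called genes, 77 had a mean log2 CPM over 0, and the largest changes of all lay among the others, where the fitted value depends on the prior count. The following were named after their values were seen. Gnat3, the G protein subunit of taste cells, rested on 53 counts at 6 months and 229 at 12 months and had a log2 change of 1.91 (SE 0.40, adjusted p = 0.00202 by limma), with 10 of 11 older libraries above all younger ones. Aox2, an aldehyde oxidase, rested on 238 and 72 counts and fell by 1.92 (SE 0.32, adjusted p = 7.24e-05). Mpped1, a phosphoesterase-like protein, rested on 154 and 34 counts and fell by 2.38 (SE 0.47, adjusted p = 0.00103). Acan, the large proteoglycan of cartilage, was at 0.409 to 1.17 CPM (median 0.783) at 6 months and at 0.0343 to 0.956 (median 0.292) at 12 months, and had a log2 change of -1.499 (SE 0.33, adjusted p = 0.00428).

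Some called genes of other roles were in no list and outside the 15 largest changes. Ezh2, the histone methyltransferase of Polycomb, was at 3.80 to 10.5 CPM (median 7.82) at 6 months and at 9.35 to 16.6 (median 12.0) at 12 months, a log2 change of 0.73 (SE 0.15, adjusted p = 0.00235). Cxadr, an adhesion protein of cell junctions, was at 3.40 to 8.50 CPM (median 5.45) and at 7.64 to 14.4 (median 9.17), a change of 0.89 (SE 0.15, adjusted p = 8.14e-05). Creb3l1, a transcription factor of the endoplasmic reticulum known to act on type I collagen, was at 20.4 to 33.1 CPM (median 24.1) and at 8.52 to 20.9 (median 16.4), a change of -0.65 (SE 0.14, adjusted p = 0.0025). Twist2, a transcription factor of connective tissue cells, fell by 0.76 (SE 0.18, adjusted p = 0.0107).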
